A study of Homo sapiens with 36 samples.

Results

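MEC1 cells exposed to 50 µM fludarabine for 48 h were compared with MEC1 cells given the vehicle dimethyl sulphoxide (DMSO) for the same time. MEC1 is a B lymphoblastoid line established from chronic lymphocytic leukaemia (CLL), and its p53 is mutated. The members were chosen by cell line, drug and time from the sample labels, which gave 3 fludarabine libraries (46, 47 and 48) and 3 DMSO libraries (37, 38 and 39), 6 of the 36 libraries of the series. Each library was made from total RNA of a fixed number of cells. The other libraries come from MEC1 treated for 48 h with 5 µM ibrutinib or 10 µM idelalisib, and from the p53 wild-type lines JVM2 (72 h) and EHEB (96 h) under the same drugs and vehicle. MEC1 was grown as an established line without other cell types or a host, so the results describe these cultures and not the leukaemia of a patient. Replicates are labelled as a triplicate, and nothing states that they were separate cultures, so p-values measure the spread between these samples, which may be technical.

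Fludarabine is a purine nucleoside analogue given as its phosphate. It enters cells through nucleoside transporters, is phosphorylated first by deoxycytidine kinase, and as its triphosphate inhibits DNA polymerases and ribonucleotide reductase and is built into DNA and RNA. In cells with working p53 the resulting DNA damage switches on p53 target genes that stop the cell cycle or start apoptosis, and loss of p53 is a known reason for poor response of CLL to this drug. The question of the comparison was which functions rise and fall when this damage meets a B-cell line whose p53 is mutated.

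Fludarabine changed the MEC1 transcriptome broadly. Of 17516 genes tested, 7694 passed an adjusted p of 0.05 (43.9%) in the quasi-likelihood test of edgeR, adjusted by the Benjamini-Hochberg method, 3721 of them higher (21.2%) and 3973 lower (22.7%). Genes that passed are named higher or lower here. Most changes were modest, since 69.8% of the calls were under 2-fold. Large changes went mostly upwards, with 1644 genes at least 2-fold higher and 680 at least 2-fold lower, and 724 and 87 at 4-fold. The filter on low counts keeps genes that are high in a single group, so the large rises include genes near the floor with DMSO. In 9781 genes (55.8%) the values of the groups did not overlap. Values are given as CPM, counts relative to a common library total, after scaling with trimmed means of M values (TMM), a method that sets the bulk of genes to no change.

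The direction of a change followed the expression level of the gene. Among genes with an average of at least 8 on the log2 CPM scale, 67.4% were lower and 9.31% higher, with a median log2 fold change of −0.46, whereas below 0 the shares were 2.24% and 17.6% with a median of 0.75. Across all genes tested, Spearman's rho between log2 fold change and average log2 CPM was −0.40, a description across genes that share libraries. Totals were 37077174 to 46425576 counts with DMSO and 26590705 to 34231720 with fludarabine, and TMM factors were 0.95 to 0.978 and 1.14 to 1.15. Scaling to library totals instead raised the log2 fold changes by 0.25 (median over genes), and the calls became 6052 higher and 2113 lower. Changes are therefore given relative to the TMM scale. For gene lists whose balance of calls turned or levelled under library size scaling, the calls or the median under it are given. RNA came from a fixed number of cells, but equal RNA amounts were sequenced, so fewer cells expressing a gene and less of its RNA per cell cannot be told apart.

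**Figure D1:**
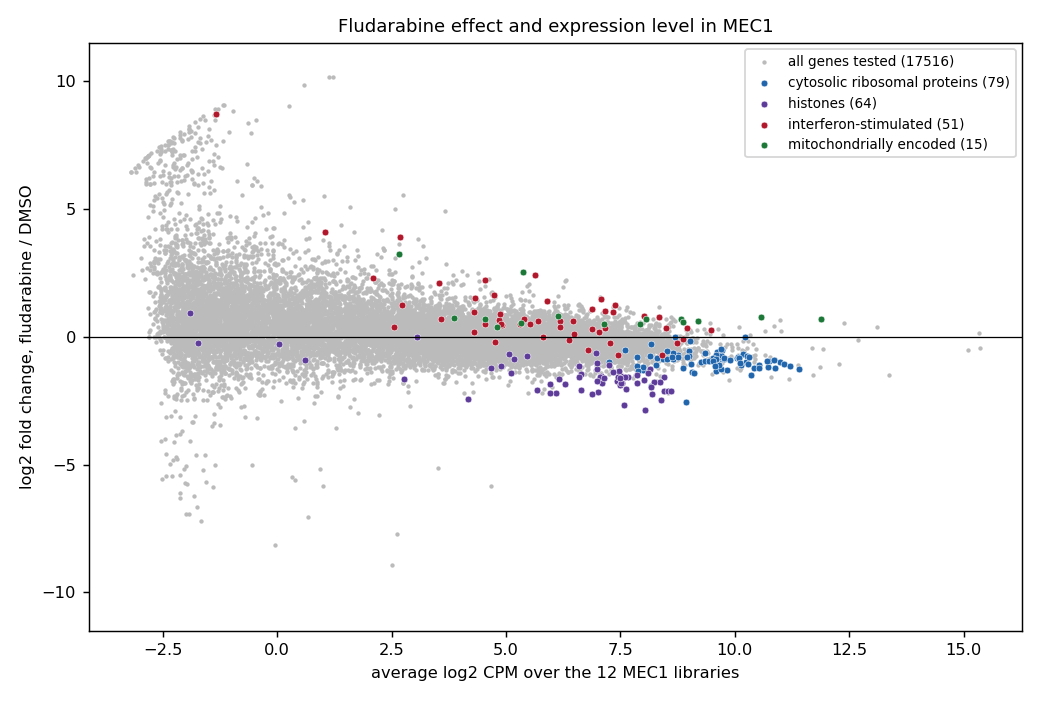
Log2 fold change (fludarabine over DMSO, vertical axis) against the average log2 CPM over the 12 MEC1 libraries (horizontal axis), 1 point per gene tested (17516). The 64 histone genes and the 79 cytosolic ribosomal protein genes lie mostly below 0 at high expression, the 51 interferon-stimulated genes and the 15 mitochondrially encoded genes mostly above it. The interferon-stimulated gene near a log2 fold change of 8.73 is GBP5, which had no counts with DMSO.

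Of 44 lists of genes with a common function, 30 held more members lower than higher and 13 more higher than lower. The counts of calls per list stand beside 22.7% lower and 21.2% higher over all genes tested. These shares do not allow for expression level. The share lower was 30.3% at an average log2 CPM of 4 to 6, 43.3% at 6 to 8 and 67.4% at 8 or more. The part of expression level in the counts per list was not tested. Histones, ribosomal proteins, immunoglobulin genes, glycolysis, the ATF4 response and sterol synthesis stood at the lower end, and chemokines, mitochondrially encoded genes, interferon-stimulated genes and MHC class II at the upper end. Under library size scaling the numbers of lists became 12 and 28, and the lists named here kept their direction.

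Histone genes had the lowest median log2 fold change of the 44 lists. Histones package DNA, and the replication-dependent histone genes, which sit in clusters on chromosomes 6 and 1, are transcribed in S phase and make messenger RNAs without a poly(A) tail. Of 65 listed histone genes 64 were tested, 56 were lower and none was higher, against 22.7% lower over all genes, with a median log2 fold change of −1.61. On chromosome 6, 40 of 45 were lower, and on chromosome 1, 12 of 13. All classes took part: 4 of 5 linker histone H1 genes, 14 of 15 H2A, 15 of 17 H2B, 11 of 13 H3 and 12 of 14 H4 genes were lower. Their summed share of all counts was 0.804% to 0.953% in the DMSO libraries and 0.303% to 0.336% in the fludarabine libraries. With library size scaling 55 were lower and the median was −1.36.

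HIST1H1E, a linker histone gene on chromosome 6 (26156329 to 26157115, GRCh38), had 294, 263 and 334 CPM with DMSO and 34.2, 39.8 and 47 CPM with fludarabine. The groups were far apart, and the gene was 7.37-fold lower (log2 fold change −2.88, standard error 0.12, edgeR adjusted p = 6.50e-08). HIST1H1D went from 171 to 215 CPM down to 28.4 to 32.6 CPM (−2.68), and HIST1H1C from 283 to 310.4 CPM down to 51.1 to 55.8 CPM (−2.49). Among core histones HIST1H3H fell by 2.25 and HIST1H4I by 2.23 on the log2 scale, and HIST2H2AB and HIST3H2BB by 2.21 and 2.43, with no overlap between groups in any of them. HIST1H2AD, an H2A gene, was at 104 to 119 CPM with DMSO and at 21, 14.4 and 40 CPM with fludarabine, a fall of 2.18. The 8 histone genes that were not lower included HIST1H1A, an H1 gene with at most 0.359 CPM in any of the 6 libraries. H2AFX, the variant whose phosphorylation marks DNA breaks and which has its own polyadenylated transcript, was 234.5 to 256 CPM with DMSO and 183.8 to 199.7 CPM with fludarabine (−0.33, edgeR adjusted p = 0.00114), a call lost under library size scaling. Several histone genes are near-identical copies, so the split of reads between them is uncertain.

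The octamer ATTTGCAT, bound by OCT1 at H2B promoters, is shown here in promoters of 2 H2B genes from the lowered group, with the octamer in capitals, from RefSeq (GRCh38.p14).
HIST1H2BK (chr6:27146857-27146944, minus strand): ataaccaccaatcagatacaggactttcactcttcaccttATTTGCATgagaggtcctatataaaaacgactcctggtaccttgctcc
HIST1H2BM (chr6:27814934-27815021, plus strand): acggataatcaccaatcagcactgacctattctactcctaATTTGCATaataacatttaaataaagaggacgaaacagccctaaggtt
Both genes were chosen after their values were seen. HIST1H2BK went from 369, 319 and 399.7 CPM to 120.3, 113 and 130.4 CPM (−1.58), and HIST1H2BM from 82.3, 67 and 73.4 CPM to 23.6, 24 and 23.1 CPM (−1.65). The octamer, on either strand within 250 bases before and 50 after the start, was present in 19 of 54 histone promoters (35.2%), in 196 of 12009 promoters of genes tested (1.63%) and in 492 of 27305 RefSeq promoters (1.8%). It was held by 17 of the 47 promoters of lowered histone genes. A match describes these letters and does not show binding.

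The machinery of protein synthesis fell with the histones. The cytosolic ribosome holds many different proteins, whose messenger RNAs are among the most abundant of a growing cell. All 79 listed ribosomal protein genes were tested, and 75 were lower and none higher (median log2 fold change −0.91). The large subunit gave 44 of 46 and the small subunit 31 of 33. Together they took 6.15% to 6.64% of counts with DMSO and 3.98% to 4% with fludarabine. With library size scaling 72 remained in the lower group and 1 was higher. RPL10 went from 1577, 1436 and 1530 CPM to 550.4, 530.1 and 522 CPM (−1.5, edgeR adjusted p = 4.13e-08), and RPS6, the S6 kinase substrate, from 869.5 to 946 CPM down to 502 to 514 CPM (−0.85). RPL29 had the largest fall (−2.55), but DMSO library 37 held 197 CPM against 822 and 733 CPM in the other DMSO libraries. Its call was lost without fludarabine library 46 or 48.

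Translation factors shared the direction, with 26 of 44 lower and 3 higher (median −0.33; 18 and 11 under library size scaling). EEF1A1, which brings aminoacyl-tRNA to the ribosome, had 11962, 10045 and 11613 CPM with DMSO and 4447, 3545 and 3984 CPM with fludarabine, a 2.81-fold fall (edgeR adjusted p = 8.60e-07). EEF2, which moves the ribosome along, went from 5448 to 6308 CPM down to 2586 to 2641 CPM (−1.17), and the initiation factor EIF4B from 607 ± 151 CPM to 184.7 ± 5.5 CPM (SD, n = 3; −1.72). EIF2B1 and EIF2B2, subunits of the exchange factor for eIF2, went the other way, by 0.82 and 0.68. NPM1, nucleophosmin of the nucleolus, fell from 1055 to 1122 CPM to 407 to 446 CPM (−1.38). The list of MYC and ribosome biogenesis genes was mixed, with 15 of 45 lower and 6 higher, which turned to 8 and 16 under library size scaling. MYC itself had 211, 11.2 and 169.5 CPM with DMSO, and at 79.8 to 90.2 CPM with fludarabine it was not called (edgeR adjusted p = 0.635).

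Copies of the gene of U3, a small nucleolar RNA that guides the cutting of ribosomal RNA, were lower as well. Over all 156 SNORD and SNORA genes tested, 45 were lower and 2 higher (28.8% and 1.28%, against 22.7% and 21.2% over all genes). SNORD3C, a copy of the U3 small nucleolar RNA gene on chromosome 17, fell from 31.9, 24.2 and 37.3 CPM to 0.522, 1.54 and 0.496 CPM (−5.15, standard error 1.02, edgeR adjusted p = 0.00169). SNORD3A went from 678 to 803 CPM down to 139 to 190.6 CPM (−2.21) and SNORD3B-1 from 77.2 to 92.1 CPM down to 13.3 to 22.3 CPM (−2.21). These copies are near-identical, so reads can be shared between them. Of 24 long noncoding host genes of small nucleolar RNAs, 12 were lower and 2 higher (median −0.35). SNHG6 and SNHG8 fell by 1.39 and 1.22, and SNHG3 rose by 0.93. Among 25 other small structured RNA genes 15 were lower and 2 higher (median −0.46), but without fludarabine library 46 the count of lower genes was 9, and with library size scaling it was also 9. RNU2-2P, a U2 spliceosomal RNA locus, was at 1843 to 2523 CPM with DMSO and at 1256, 695 and 249 CPM with fludarabine. RN7SK, the RNA that holds back the elongation factor P-TEFb, overlapped between groups (25899.9 to 31121 and 28768 to 34264 CPM), while HEXIM1, its protein partner, rose from 28.1 to 30 CPM to 57.5 to 63 CPM (1.02). RNU12 had no counts with DMSO and 2.71 to 4.41 CPM with fludarabine.

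Metabolic genes fell in several branches. Glycolysis turns glucose into pyruvate and lactate, and many of its genes also answer hypoxia. Of 38 such genes tested, 28 were lower and 1 higher (median −0.73), and their share of counts went from 2.27% to 2.38% with DMSO to 1.48% to 1.53% with fludarabine. PGK1, phosphoglycerate kinase, had 1241, 1185 and 1251 CPM with DMSO and 549.6, 502 and 532 CPM with fludarabine (−1.22, standard error 0.0521, edgeR adjusted p = 6.50e-08). PFKFB4, which sets the fructose 2,6-bisphosphate level, fell by 1.45 and the lactate exporter SLC16A3 by 1.29, each without overlap. HK2, a hexokinase of the first step of the pathway, went from 376 to 400.2 CPM down to 211 to 233.6 CPM (−0.82). NDRG1, a hypoxia gene, was the exception at 2.58 to 4.21 and 4.70 to 7.32 CPM (0.71). Its call was lost in the fit of the 6 libraries alone and without DMSO library 37 or fludarabine library 47.

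ATF4 is the transcription factor of the integrated stress response, and its targets supply amino acids and charged tRNAs. Of 40 genes of this response, 28 were lower and 1 was higher (median −0.59). ATF4 itself went from 402, 389 and 432 CPM to 183, 190.4 and 185.6 CPM (−1.13, edgeR adjusted p = 5.26e-07). Asparagine synthetase ASNS fell from 132.6 to 145 CPM to 62.3 to 91.5 CPM (−0.84), the mitochondrial serine enzyme SHMT2 from 369 to 372 CPM to 110 to 177 CPM (−1.29), and the stress factors TRIB3 and DDIT3 by 0.95 and 1.07. Of its 12 aminoacyl-tRNA synthetase genes 10 were lower, and only WARS, the tryptophanyl-tRNA synthetase that interferon-gamma also induces, was higher, from 132 to 141 CPM to 204 to 231 CPM (0.67). ATF3 (14.9 to 30.2 and 15.8 to 28.5 CPM) and CHAC1 (10 to 13.8 and 7.93 to 8.58 CPM) were not called.

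Sterol and fatty acid synthesis followed, with 28 of 39 genes lower and 3 higher (median −0.56). HMGCS1, which makes HMG-CoA, had 357, 381 and 358 CPM with DMSO and 162, 159.7 and 170.3 CPM with fludarabine (−1.16, edgeR adjusted p = 1.45e-07). CYP51A1, a demethylase of the sterol pathway, fell by 1.09 and the sterol sensor partner INSIG1 by 1.03. The cholesterol exporters ABCA1 and ABCG1, which the oxysterol receptor LXR drives, stood on the other side: ABCA1 went from 3.97 to 4.34 CPM to 9.13 to 10.2 CPM (1.26) and ABCG1 from 13.8 to 15.5 CPM to 31.3 to 35.7 CPM (1.22). INSIG2 fell (−1.36), but its DMSO values were 52.8, 122 and 50.6 CPM, and its call did not survive leaving out DMSO library 38 or fludarabine library 47. FASN, fatty acid synthase, fell by 0.91.

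Nucleotide synthesis, the folding of secreted proteins and nuclear-encoded respiration were lower to a smaller extent. Their shares lower were 57.7%, 55.3% and 45.5%. Among all genes the share was 30.3% at an average log2 CPM of 4 to 6 and 43.3% at 6 to 8. The part of expression level in these falls was not tested. Of 26 purine and pyrimidine synthesis genes 15 were lower and 1 higher (median −0.37), with falls of 1.34 for the mitochondrial folate enzyme MTHFD1L, 0.98 for the adenine salvage enzyme APRT and 0.85 for IMPDH2, the rate-limiting enzyme of guanine nucleotide synthesis. UMPS, of pyrimidine synthesis, was the gene that rose (0.47). Of 38 endoplasmic reticulum genes 21 were lower and 4 higher (median −0.29), led by SEC24D (−1.25) and SEC61G (−1.15), while the chaperone CALR rose from 592 to 638 CPM to 816 to 907 CPM (0.52). HSPA5, the main chaperone of that compartment, went from 1505 to 1512 CPM to 1015 to 1073 CPM (−0.52). Respiratory chain subunits encoded in the nucleus gave 35 of 77 lower and 6 higher (median −0.29), but 17 and 17 under library size scaling. NDUFA1 and NDUFS4 of complex I each fell by 1.29 and ATP5MC2 of the ATP synthase by 1.39.

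Transcripts of the mitochondrial genome moved oppositely. This genome encodes 13 subunits of the respiratory chain and its own 2 ribosomal RNAs. Of these 15 genes 11 were higher and none lower (median 0.69), 9 of the 13 messenger RNAs and both ribosomal RNAs. The summed share was 0.388% to 0.598% of counts with DMSO and 0.778% to 1.05% with fludarabine. MT-CO1, of complex IV, went from 2382, 3091 and 2094 CPM to 4205, 4654 and 3495 CPM (0.71, edgeR adjusted p = 0.00277). MT-RNR2, the large ribosomal RNA, went from 14.6, 26.9 and 13.6 CPM to 122, 87.3 and 107 CPM (2.52), and MT-RNR1 from 0.73, 4.69 and 0.93 CPM to 24.7, 15.2 and 21.4 CPM (3.25). DMSO library 38 was the highest DMSO library in each of these 3 genes. The labels describe the RNA as depleted of ribosomal RNA, and the part of that depletion in the values of both ribosomal RNAs was not tested.

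Genes of antibody production were mostly lower, and those of B-cell identity moved in both directions. MEC1 carried the B-cell markers in both groups: CD79A, MS4A1 (CD20) and PAX5 lay between 109.7 and 372 CPM in the 6 libraries. Of 12 immunoglobulin constant genes and the J chain that were tested, 9 were lower and 1 higher (median −0.89), while 6 more were below the filter on low counts. IGHG1, the constant region of IgG1, went from 366, 352 and 339.8 CPM to 121, 131 and 119 CPM (−1.52, edgeR adjusted p = 1.26e-07). IGHG2 and IGHG4 fell by 2.18 and 1.54, but the constant regions are similar in sequence and reads can be shared. Of 32 B-cell and plasma-cell transcription factors 15 were lower and 6 higher, and 9 and 9 under library size scaling. TCF3 (E2A) went from 344 to 365 CPM to 122 to 133.5 CPM (−1.49), IRF4 from 968 to 1024 CPM to 465 to 501 CPM (−1.02) and IKZF2 from 1147 to 1250.3 CPM to 487 to 544 CPM (−1.24). BCL6, the germinal centre repressor, rose by 0.63, a call lost in the fit of all 36 libraries, and SPIB by 0.91, and PRDM1, which drives plasma cell fate, was at 10.8 to 14.2 and 17.8 to 22.6 CPM without a call (edgeR adjusted p = 0.0796).

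Components of B-cell receptor signalling gave 23 of 42 lower and 8 higher, a balance that turned to 8 and 17 under library size scaling. The phosphatase INPP5D (SHIP1) fell from 212 to 278 CPM to 114 to 134.1 CPM (−1), the adaptor BLNK by 0.77 and the kinase CSK by 0.80. The inhibitory receptors CD72 and FCGR2B rose by 1.32 and 0.83. On the surface, 12 of 27 CLL, costimulatory and checkpoint genes were lower and 10 higher (median −0.092, and 0.16 under library size scaling). CD48 went from 759, 708 and 727 CPM to 265, 277 and 263 CPM (−1.45), the CLL antigen CD23 (FCER2) from 83.5 to 96.2 CPM to 40 to 44.3 CPM (−1.07) and the APRIL receptor TNFRSF13B (TACI) fell by 1.57. CD86, the ligand of CD28, rose from 11, 9.56 and 11.6 CPM to 40.2, 42.1 and 46.6 CPM (2, edgeR adjusted p = 4.50e-07) and CD38 from 1.41 to 1.94 CPM to 7.68 to 9.07 CPM (2.34).

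Among called genes averaging 3 or more on the log2 CPM scale whose groups did not overlap, the largest rises were of surface receptors, signalling genes and an interferon-inducible GTPase. FCRL5 (chromosome 1, 157513377 to 157552515), an Fc receptor-like protein of B cells, had 2.29, 1.81 and 2.17 CPM with DMSO and 29.3, 27.6 and 31 CPM with fludarabine, a 14-fold rise (log2 fold change 3.81, standard error 0.201, edgeR adjusted p = 1.83e-07). SGK1, a serum- and glucocorticoid-regulated kinase, followed at 1.10 to 1.48 and 13 to 16.3 CPM (3.54), and ITGAX, the integrin CD11c, at 3.49 to 4.41 and 28.6 to 34.1 CPM (3.07). TNFAIP2, a gene induced by tumour necrosis factor, was at 35.1, 22.4 and 21.5 CPM after 2.89 to 3.97 CPM (2.92). The neurotrophin receptor NTRK2 (2.84), the costimulatory receptor TNFRSF9 (4-1BB, 2.58), the immediate early gene IER3 (2.48), the adhesion molecule VCAM1 (2.43), the serotonin transporter SLC6A4 (2.49) and the transporter ABCA6 (2.41) also rose. At the other end stood histone and U3 genes, RPL29, the potassium channel subunit KCNMB2 (−2.21) and the inhibitory receptor PVRIG (−2.21), the last with DMSO values of 26.5, 26.5 and 11 CPM. Among protein-coding genes averaging 7 or more, the chemokine CCL22, the interferon-inducible SAMD9 and SAMD9L, the titin gene TTN and TUG1, better known as a long noncoding RNA, were among those that rose most, by 1.55, 1.48, 1.23, 1.18 and 1.16.

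**Figure D2:**
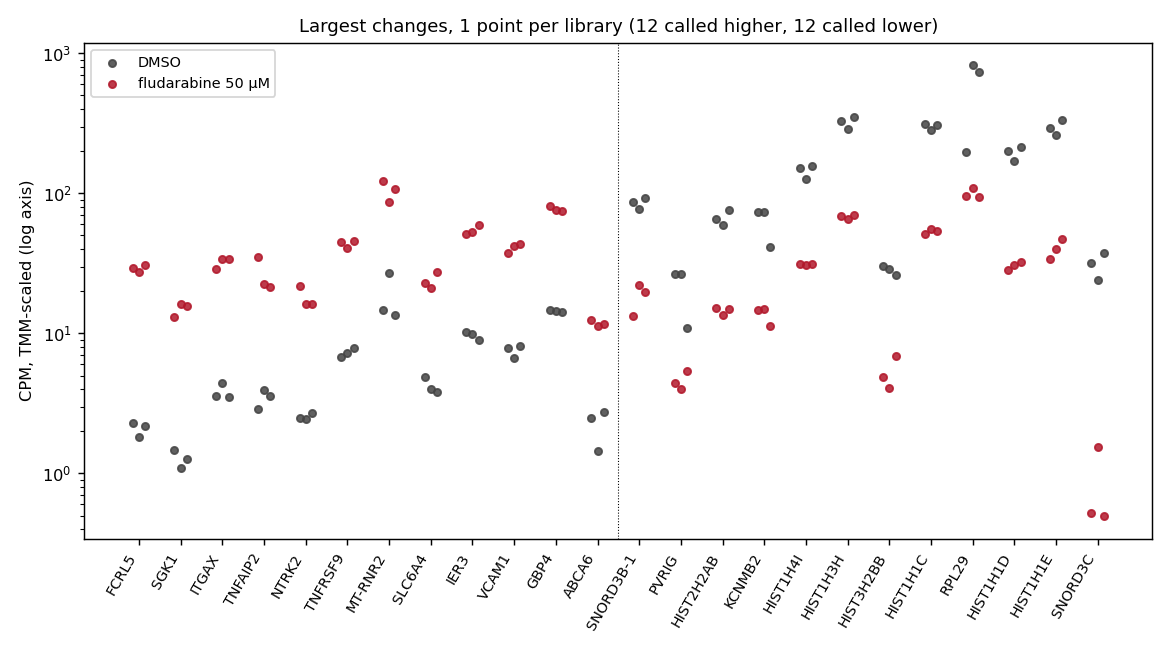
CPM after TMM scaling (log axis) of the 12 genes with the largest rise (left of the dotted line) and the 12 with the largest fall (right) among called genes averaging 3 or more in log2 CPM, without overlap, 1 point per library, grey for DMSO and red for 50 µM fludarabine, 3 libraries each. FCRL5 lies at 1.81 to 2.29 CPM with DMSO and 27.6 to 31 CPM with fludarabine, and 7 of the falling genes are histone genes.

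Interferon-stimulated genes rose together. Type I interferons bind surface receptors and act through a complex that holds STAT2 and IRF9 on the interferon-stimulated response element of antiviral genes, and interferon-gamma acts on GBP, CIITA and chemokine genes. Of 51 such genes, all tested, 36 were higher and 5 lower, against 21.2% higher over all genes (median log2 fold change 0.61). Their share of counts went from 0.398% to 0.429% with DMSO to 0.576% to 0.647% with fludarabine.

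Promoters of 3 genes that rose are shown because they carry copies of a core of that response element, TTTC followed after any 2 bases by TTTC again, marked in capitals on either strand (RefSeq, GRCh38.p14). The genes were chosen after their values were seen.
IFIT1 (chr10:89392467-89392569, plus strand): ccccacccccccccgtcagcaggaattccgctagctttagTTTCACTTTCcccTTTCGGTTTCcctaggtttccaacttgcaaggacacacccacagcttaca
IFIT3 (chr10:89327801-89327924, plus strand): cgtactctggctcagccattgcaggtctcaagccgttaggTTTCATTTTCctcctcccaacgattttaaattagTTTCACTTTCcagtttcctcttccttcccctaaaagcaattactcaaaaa
ISG15 (chr1:1013344-1013439, plus strand): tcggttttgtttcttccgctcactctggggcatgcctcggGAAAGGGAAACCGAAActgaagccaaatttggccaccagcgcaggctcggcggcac
In ISG15 the copies lie on the other strand and overlap. The motif was found in 25 of 39 promoters of the interferon-stimulated genes (64.1%), in 377 of 12009 promoters of genes tested (3.14%) and in 996 of 27305 RefSeq promoters (3.65%), and in 19 of the 29 promoters of those that were higher. A match describes letters, not a bound site.

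IFIT1, which binds viral RNA, went from 3.45, 3.31 and 2.99 CPM to 16.3, 12.7 and 16.7 CPM (2.23, edgeR adjusted p = 5.23e-07). IFIT3 changed far less, from 56.4 to 59.3 CPM to 62 to 68.3 CPM (0.18), and ISG15, the ubiquitin-like modifier, overlapped at 54.8 to 76.3 and 72.9 to 93 CPM (0.33, edgeR adjusted p = 0.0405). All 4 GBP genes, GTPases induced by interferon-gamma, rose. GBP4 had 14.8, 14.4 and 14.1 CPM with DMSO and 81.4, 75.5 and 75.1 CPM with fludarabine (2.42, standard error 0.0719, edgeR adjusted p = 1.19e-08), and GBP1 went from 1.14 to 1.79 CPM to 19.6 to 22.3 CPM (3.89). GBP5 had no counts in the DMSO libraries, where 3 counts would be 0.0661 to 0.0846 CPM, and 1.19 to 1.52 CPM with fludarabine. LGALS3BP rose from 0.219 to 0.451 CPM to 5.31 to 6.55 CPM (4.09).

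The rise did not extend to every member. MX2 (−0.70), IFI30 (−0.72) and IRF7 (−0.50) were lower, the last from 100.5 to 111 CPM to 68.8 to 83.6 CPM. Of the transcription factors, IRF1 rose from 64.6 to 70.5 CPM to 99.4 to 108 CPM (0.62), while IRF9 had 62.5, 24.2 and 58.6 CPM with fludarabine and was not called. IFNG, the gene of interferon-gamma, went from 0.122, 0.331 and 0.225 CPM to 2.75, 3.39 and 3.34 CPM (3.78, edgeR adjusted p = 0.000127). IFNA1 and IFNL1 had no counts in the 6 libraries, and IFNB1 reached at most 0.282 CPM, so no type I or type III interferon transcript beyond this level was detectable among these 3.

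Chemokines, cytokines and ligands of the tumour necrosis factor family rose in 19 of 30 cases and fell in 2 (median 0.94). CCL22, which draws T cells through CCR4, had 98.6, 102 and 106 CPM with DMSO and 305, 298 and 293 CPM with fludarabine (1.55, standard error 0.0754, edgeR adjusted p = 1.32e-07). CCL5 went from 27.7 to 31.5 CPM to 119 to 128 CPM (2.07), the interferon-induced CXCL10 from 4.45 to 6.45 CPM to 11.6 to 12.7 CPM (1.23) and XCL1 from 1.32 to 2.14 CPM to 5.06 to 7.25 CPM (1.85). IL32 fell by 0.46. Of 22 homing and adhesion receptors 6 were higher and 4 lower (27.3% and 18.2%), near the 21.2% and 22.7% over all genes. CXCR3, the receptor of CXCL10, rose by 1.71, CCR10 by 1.39 and CD44 by 1.01, whereas GPR183, which guides B cells to the follicle edge, fell by 1.09 and S1PR4 by 1.06.

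MHC class II genes, which present antigen to CD4+ T cells, were higher in 11 of 18 cases and lower in 2 (median 0.34). CIITA, their master regulator, went from 77.5, 86 and 82.7 CPM to 108, 119.5 and 110.4 CPM (0.46, edgeR adjusted p = 0.00041). HLA-DMB and HLA-DMA, which exchange peptides on class II, rose by 1.69 and 1.49, and HLA-DRA by 0.23, a call lost without DMSO library 38 or 39 or fludarabine library 46. HLA-DQB2 and the cofactor RFXAP were lower (−1.39 and −0.46), the latter in a call lost under library size scaling and in 4 of the 6 leave-outs. MHC class I genes were mixed, with 5 of 21 higher and 7 lower (23.8% and 33.3%). Their median was −0.13, and 0.12 under library size scaling. The peptide transporter TAP2 rose by 0.68 and the proteasome activator PSME2 by 0.54, and HLA-C, at 576, 560.3 and 335 CPM with DMSO, went to 207 to 254 CPM (−1.13). HLA genes share sequence and differ between alleles, so their counts are uncertain.

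Immediate early transcription factors and feedback genes of the ERK pathway were higher in 15 of 35 cases and lower in 4 (median 0.32). IER3 went from 10.3, 9.85 and 9.02 CPM to 50.9, 53.1 and 59 CPM (2.48), the nuclear receptor NR4A3 from 1.63 to 2.54 CPM to 10.1 to 12 CPM (2.31) and EGR2 from 5.44 to 7.71 CPM to 35.3, 10.2 and 31.8 CPM (1.93). DUSP2 fell from 105 to 111 CPM to 46.4 to 47.2 CPM (−1.20). EGR1 (6.15 to 8.0 and 4.61 to 6.01 CPM) and FOS (1.17 to 1.82 and 3.54 to 4.77 CPM) were not called. Of 31 NF-κB genes 12 were higher and 6 lower. TNFAIP2, NFKBIZ (0.84) and RNF19B (0.87) rose, the inhibitors NFKBIE (−0.70) and TNIP1 (−0.63) and the ubiquitin ligase BIRC2 (−1.09) fell, and the feedback inhibitors NFKBIA and TNFAIP3 overlapped between groups. NFKBIA had 66 to 80 and 68.2 to 75.8 CPM (−0.006, and 0.24 under library size scaling).

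Targets of p53 gave 13 higher and 6 lower of 28 tested (46.4% and 21.4%; median 0.15), and 2 more were below the filter. CDKN1A, the cell cycle inhibitor p21, rose from 113, 112 and 115 CPM to 184.4, 158 and 176 CPM (0.61, standard error 0.0779, edgeR adjusted p = 8.50e-05), a call lost in the fit of all 36 libraries. MDM2, the ubiquitin ligase that degrades p53, overlapped at 275, 269 and 249 CPM and 299.7, 275 and 283 CPM (0.11, edgeR adjusted p = 0.356). ZMAT3, an RNA-binding target on chromosome 3 (178960121 to 179072215), had the smallest adjusted p of the list and rose from 129, 141 and 124 CPM to 280.9, 285 and 299 CPM (1.14, edgeR adjusted p = 1.53e-07). BAX rose by 0.47, TP53I3 by 0.64 and TIGAR by 0.86, while GDF15 (0.169 to 0.463 and 0.629 to 2.31 CPM) and PHLDA3 (0.225 to 0.535 and 1.75 to 2.46 CPM) rose at very low levels. The call of TP53I3 was lost without fludarabine library 47, and that of PHLDA3 without DMSO library 38 or 39 or fludarabine library 46. BBC3, the apoptosis gene PUMA, fell from 15.3, 15.9 and 14 CPM to 6.52, 7.03 and 7.25 CPM (−1.12, edgeR adjusted p = 3.98e-06). PMAIP1 (NOXA) fell by 0.82, with fludarabine library 48 at 63.6 CPM beside 164 and 163 CPM, and its call was lost under library size scaling, in the fit of the 6 libraries alone and without DMSO library 38 or 39.

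The p53 wild-type lines gave the same drug and dose at longer exposure, so line, p53 status and time cannot be told apart. Of 18217 genes tested for a difference between the fludarabine effects in MEC1 and JVM2, 4793 passed (26.3%), 2594 with the higher effect in MEC1 (14.2%) and 2199 with the lower (12.1%). Against EHEB it was 5522 of 18156 (30.4%), 2923 (16.1%) and 2599 (14.3%). Among the 28 p53 targets the effect was lower in MEC1 in 18 and higher in 1 against JVM2, and lower in 19 and higher in 2 against EHEB. Within JVM2, 24 were higher and 1 lower after fludarabine (median 1.01), against 23.9% and 23.3% of all genes tested there. Within EHEB it was 23 and 0 (median 1.23), against 18.4% and 19.2%.

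MDM2 rose in JVM2 from 545 to 628 CPM to 1959.6 to 2454 CPM, and in EHEB from 790.1 to 987 CPM to 2694 to 2828 CPM. The MEC1 effect was lower by 1.75 on the log2 scale against JVM2 (standard error 0.123, edgeR adjusted p = 2.25e-06) and by 1.47 against EHEB (adjusted p = 3.44e-06). TP53I3 differed most from JVM2 (−3.10) and BBC3 most from EHEB (−2.65). ZMAT3 was the reverse, since it stood at 1703 to 1917 CPM in all JVM2 libraries and at 911 to 1006 CPM in all EHEB libraries with no call, and its MEC1 effect was higher by 1.21 and 1.16. CDKN1A did not pass the test of a difference (−0.23 against JVM2, edgeR adjusted p = 0.77, and −0.47 against EHEB, 0.495). One fludarabine library of each of these lines lay far below the others, at 393 CPM beside 1171 and 1181 CPM in JVM2 and at 569 CPM beside 1856 and 1814 CPM in EHEB.

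Proliferation genes showed no common direction in MEC1. Of 46 mitosis and G2/M genes 12 were lower and 2 higher (26.1% and 4.35%, against 22.7% and 21.2% over all genes), with a median of −0.044 that was 0.20 under library size scaling, where the calls were 3 and 16. CDK1 went from 195, 203 and 208 CPM to 148, 153 and 151 CPM (−0.42, edgeR adjusted p = 0.000285), CCNA2 fell by 0.58 and the spindle checkpoint gene MAD2L1 by 0.87. MKI67, the proliferation antigen Ki-67, was 839, 919 and 789 CPM with DMSO and 1052, 965 and 1124 CPM with fludarabine (0.30), a call lost in the fit of all 36 libraries, without a filter on low counts and when any 1 of DMSO libraries 37 and 39 and fludarabine libraries 46 and 48 was left out. CCNB1 (74.7 to 79.5 and 82 to 92.2 CPM) was not called. In JVM2 44 of the 46 genes were lower and none higher (median −3.12), with MKI67 at 239.1 to 258 CPM before and 25.5 to 28.2 CPM after fludarabine, and the MEC1 effect was the higher in 44 of 46. In EHEB 20 were lower and 3 higher (median −0.38), and the MEC1 effect was higher in 20 and lower in 3. Over all genes the MEC1 effect was higher in 14.2% against JVM2 and in 16.1% against EHEB.

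DNA replication genes were balanced at 10 higher and 10 lower of 46 (20 and 2 under library size scaling). CLSPN, an activator of the checkpoint kinase CHK1, rose from 60.6 to 66.6 CPM to 108 to 112 CPM (0.79) and POLA2 by 0.58, while the licensing factor CDT1 fell from 356 to 375 CPM to 237 to 261 CPM (−0.54) and GINS2 by 0.80. PCNA overlapped, at 350 to 367 and 328 to 365 CPM (−0.017, and 0.23 under library size scaling), and so did TOP2A (−0.04, and 0.21). Of 23 cyclins and CDK inhibitors 11 were higher and 4 lower. Cyclin D2 (CCND2) went from 17.8, 19.3 and 16.8 CPM to 52.5, 54.3 and 52.8 CPM (1.57, edgeR adjusted p = 1.28e-06) and RB1 rose by 0.75, whereas CDKN1B (p27) fell from 82.7 to 87.3 CPM to 43.5 to 45.4 CPM (−0.94). CDKN2C fell slightly (−0.24), with 0.012 under library size scaling, and its call was lost there and in the fit of all 36 libraries.

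Genes of DNA damage signalling and repair gave 17 higher and 19 lower of 60 (28 and 4 under library size scaling), which included XRCC2 of homologous recombination (0.91), LIG4 of end joining (0.89) and the glycosylase OGG1 (0.71) among the risers and LIG3 (−0.81), FANCG (−0.81) and XRCC4 (−0.72) among the fallers. ATM had 255, 286.2 and 298 CPM with DMSO and 212, 243 and 193 CPM with fludarabine (−0.38, edgeR adjusted p = 0.0239). The call of ATM was lost under library size scaling and when any 1 of DMSO libraries 38 and 39 and fludarabine libraries 46 and 48 was left out.

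Genes that handle fludarabine and its nucleotide targets changed in both directions. Of 27 tested 8 were lower and 3 higher, which became 4 and 8 under library size scaling. DCK, the kinase that activates fludarabine, went from 143.6, 157 and 145 CPM to 96.6, 87.3 and 90.5 CPM (−0.70, standard error 0.0749, edgeR adjusted p = 2.22e-05). The transporter SLC29A1 overlapped (63.3 to 71.6 and 67.6 to 73.7 CPM). SAMHD1, which breaks down nucleoside triphosphates, rose from 17.3, 25.4 and 25.5 CPM to 71.4, 66.6 and 74.3 CPM (1.64, edgeR adjusted p = 7.82e-06). The nucleotidase NT5C2 rose by 0.90 and NT5C fell by 1.32. Ribonucleotide reductase, a target of the drug, was little altered: RRM1 fell by 0.26, a call lost under library size scaling, RRM2 (169 to 367 and 166 to 253 CPM) overlapped, and RRM2B, its p53-induced subunit, was at 53 to 58.2 and 57.4 to 61.4 CPM.

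The drug-conjugating UGT2B17 had 17.1, 16.6 and 17.4 CPM with DMSO and 12.4, 11.4 and 10.3 CPM with fludarabine (−0.58, edgeR adjusted p = 0.00015). This fall is opposite in direction to the paper, which reported by RT-qPCR that fludarabine raised UGT2B17 in MEC1. The paper also reported that drug treatments raised glucuronidation of a UGT2B17 substrate. Its clustering of expression changes placed UGT2B17 among genes up-regulated across all samples. Its text does not give the dose and time of the RT-qPCR, which may differ from those of these libraries. The reason for the difference was not tested. Of 26 UGT and glucuronidation genes 19 were below the filter. The 7 tested had a median of −0.19, and of 0.059 under library size scaling. Of the 7 tested, UGT8 rose by 0.41, a call lost in the fit of all 36 libraries, and UGP2, which makes UDP-glucose, fell by 0.23 (0.024 under library size scaling, and its call was lost in each of the 6 leave-outs). Among 11 drug efflux transporters 3 were higher and 1 lower. ABCB1, the P-glycoprotein, went from 8.25, 7.65 and 8.09 CPM to 23.2, 22.9 and 24.1 CPM (1.55, edgeR adjusted p = 4.77e-06), ABCB4 rose by 1.20 and ABCC10 by 0.61, and ABCC4, an exporter of nucleotides, fell by 0.34, a call lost under library size scaling.

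Death genes did not share a direction. BCL2, the survival protein that CLL cells rely on, fell from 487, 515 and 495 CPM to 279, 271 and 263 CPM (−0.88, standard error 0.0596, edgeR adjusted p = 8.30e-07), while its relatives BCL2A1 and BCL2L1 (BCL-XL) rose by 0.52 and 0.54. Of 9 survival proteins and BAX-type effectors 4 were higher and 3 lower. MCL1 was at 228 to 242 and 283 to 298 CPM and was not called (edgeR adjusted p = 0.0557). Of 9 BH3-only genes 5 were lower and 2 higher. BMF rose from 45.7 to 50.3 CPM to 95.2 to 100 CPM (1), and BNIP3L fell by 1.03 beside BBC3 and PMAIP1. Of 29 death receptor and caspase genes 9 were higher and 7 lower (31% and 24.1%, against 21.2% and 22.7% over all genes). CASP1, the inflammatory caspase, went from 3.13 to 4.32 CPM to 13.1 to 18.7 CPM (2.06), RIPK1 and RIPK3 of necroptosis rose by 0.64 and 1.24, and the apoptosome protein APAF1 fell by 0.49, a call lost under library size scaling. FAS had 37.7, 16.1 and 37.6 CPM with fludarabine against 36.4 to 40.8 CPM with DMSO.

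Lists of RNA and protein handling, stress and nutrient signalling showed smaller imbalances, most of which turned with the scaling. Splicing factors gave 16 of 48 lower and 6 higher (10 and 17 under library size scaling), with HNRNPA1 falling from 441, 473 and 508 CPM to 168, 183.6 and 167 CPM (−1.45, edgeR adjusted p = 1.45e-07). Proteasome genes gave 7 of 31 lower and 4 higher (2 and 14), and transcription machinery 9 of 46 lower and 11 higher (4 and 24). Chaperones gave 13 of 34 lower and 7 higher (6 and 14). HSP90AB1, the constitutive HSP90, fell from 1919.9 to 2035 CPM to 969 to 1041 CPM (−0.98), whereas the small chaperone HSPB1 and the co-chaperone DNAJA1 rose by 1.13 and 1.05. Of 31 NRF2 and redox genes 11 were lower and 5 higher (4 and 10), with transketolase TKT at −1.10 and the metallothionein MT2A at 1.89.

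Of 46 lysosome and autophagy genes 14 were lower and 13 higher (4 and 22 under library size scaling). Of 28 FOXO and PI3K feedback genes 13 were lower and 8 higher (8 and 10). The insulin receptor INSR fell by 1.13 and its substrate IRS2 by 1.08, and PIK3CG, a PI3K catalytic subunit, and SESN3 rose by 1.29 and 1.26 beside SGK1. Of 24 AMPK-linked genes 10 were lower and 4 higher (3 and 10). Of 15 noncoding RNA genes of B-cell leukaemia 4 were lower and 1 higher, LINC01215 at 0.56. The median of these genes was −0.14, and 0.11 under library size scaling. MIR17HG, host of the miR-17-92 cluster, fell by 0.65, a call lost in the fit of all 36 libraries.

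Set directly against the kinase inhibitors in the same line and at the same 48 h, fludarabine libraries differed in 9005 of 17516 genes from ibrutinib (51.4%; 4548 higher, 26.0%, and 4457 lower, 25.4%). From idelalisib they differed in 9844 genes (56.2%; 5134 higher, 29.3%, and 4710 lower, 26.9%). Whether the inhibitor libraries were prepared together with the fludarabine libraries is not given in the sources used here, and the part of preparation in these differences was not tested. Histone genes were lower than with ibrutinib in 55 of 64 and than with idelalisib in 57, and ribosomal protein genes in 77 and 76 of 79. HIST1H1E stood at 317 to 353 CPM with ibrutinib and 358 to 391 CPM with idelalisib. Replication genes were higher with fludarabine than with ibrutinib in 35 of 46 and than with idelalisib in 32, and immediate early and ERK feedback genes in 27 and 28 of 35. FCRL5 was at 0.56 to 0.738 CPM with ibrutinib and 1.27 to 2.37 CPM with idelalisib, below its fludarabine level, and CCL22 at 75.9 to 94.4 and 43 to 46.1 CPM likewise. Interferon-stimulated genes were lower with fludarabine in 28 of 51 against ibrutinib and in 26 against idelalisib, and higher in 13 and 14. UGT2B17 was lower than with either inhibitor, by 1.74 and 2.14 on the log2 scale.

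Interferon, stress and sterol genes also differed between lines. Over all genes tested the MEC1 effect was higher in 14.2% and lower in 12.1% against JVM2, and in 16.1% and 14.3% against EHEB. The MEC1 effect on the 51 interferon-stimulated genes was lower than that in JVM2 in 28 and higher in 4, and higher than that in EHEB in 34 and lower in 3. For the 40 ATF4 genes the MEC1 effect was lower in 21 and higher in 2 against JVM2, and lower in 32 and higher in 1 against EHEB. ASNS rose in EHEB from 28.8 to 31 CPM to 39.2 to 42.1 CPM, and its effect there differed from that in MEC1 by −1.28 (MEC1 minus EHEB, edgeR adjusted p = 0.000132). Of the 39 sterol and fatty acid genes 23 had a lower and 3 a higher effect in MEC1 than in JVM2, and 13 a lower and 7 a higher effect than in EHEB. The direction of other changes was shared by JVM2 and EHEB. Histone genes were lower in 57 of 61 and 53 of 63, and higher in 2 in each line. Over all genes 23.3% and 19.2% were lower there, and 23.9% and 18.4% higher. Ribosomal protein genes were lower in 75 and 63 of 79 and higher in 0 and 2. Glycolysis genes were lower in 31 and 24 of 38 and higher in 2 and 1. Of 15 mitochondrially encoded genes 13 were higher and none lower in each line.

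Markers of other cell types were measured beside these results. All 11 B-cell markers were present, with a summed share of counts of 0.136% to 0.146% with DMSO and 0.147% to 0.15% with fludarabine, 3 higher and 7 lower. On the TMM scale their sum went the other way, from 1423 to 1493 CPM to 1276 to 1316 CPM. Of 12 T and NK cell markers 9 were tested, 6 higher and 1 lower, with CD3D and CD3G at 0 counts in all 6 libraries (3 counts would be 0.0661 to 0.099 CPM). CD3E had at most 0.198 CPM with DMSO and 1.19 to 1.29 CPM with fludarabine, and CD8A at most 0.31 and 2 to 2.49 CPM. CD2 went from 0.438 to 0.62 CPM to 1.09 to 2.41 CPM. TRAC (36 to 42.2 and 46 to 55 CPM), LCK and GNLY were already expressed with DMSO. Of 11 myeloid markers 4 were tested and 3 were higher, with MPO, ELANE, S100A8 and CD163 at 0. CSF1R went from 0.441 to 0.924 CPM to 4.43 to 5.77 CPM. ITGAM, the integrin CD11b, rose from 5.98 to 7.72 CPM to 20.6 to 23.7 CPM (1.73). Of 12 stromal, endothelial and epithelial markers 6 were tested and 2 higher, COL1A1 (1.37 to 3.21 and 10.2 to 11.6 CPM) and PECAM1 (1.08 to 1.92 and 8.47 to 9.75 CPM), with COL1A2, DCN and CDH5 at 0. Of 10 erythroid and platelet markers 1 passed the filter on low counts, and it was not called. The part of these genes in the rises described above was not tested.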

How the data were processed

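RNA of the leukaemia lines MEC1, JVM2 and EHEB was sequenced on the Illumina HiSeq platform. The authors trimmed reads with Trimmomatic, aligned them to GRCh38 (hg38) with HISAT2 2.1 and quantified Ensembl genes with StringTie 1.3.4 before testing with edgeR 3.22.5. The deposited table holds estimated counts per gene symbol, not normalized, here rounded to whole numbers. Per the labels the RNA was depleted of ribosomal RNA. The sources used here do not give the strand or the Ensembl release. The 37549 gene symbols were used, and a blank symbol (0.00384% of counts) was left out.

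Genes passing filterByExpr (minimum count 10, minimum total 15) in the 12 MEC1 libraries were scaled with TMM and fitted by edgeR 4.0.16 (R 4.3.3) with 1 coefficient per group. Quasi-likelihood tests were two-sided, with Benjamini-Hochberg adjustment over all genes tested and a threshold of 0.05. Differences between lines were tested as interactions over the fludarabine and DMSO libraries of both lines. The fits were tested on simulated data with known changes. Few genes were changed there, as many up as down, so the simulation does not test the scaling under changes as broad as those found. Alternatives covered normalization, tool, filter, the libraries in the fit and each left-out library. Positions are from GENCODE 44 and promoters from RefSeq (GRCh38.p14).

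Members and lists were chosen with earlier results of these data known. Named genes were the 12 called in each direction with the largest log2 fold change among genes averaging 3 or more in log2 CPM without overlap, the 6 in each direction among protein-coding genes at 7 or more, up to 3 in each direction per list at 1 or more, a fixed set of drug, p53 and pathway genes, and up to 3 p53 targets in each direction per line difference. Genes outside the rule are IFIT1, IFIT3, ISG15, GBP5, HIST1H1A, HIST1H2BK and HIST1H2BM, named after their values were seen, and list markers given as values. Total counts of 26590705 to 46425576 per library set the precision, and limits from 3 counts cover counting error only. A few genes that the rule names are not reported here.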

Additional observations from a re-analysis of the deposited data

Results flagged for a closer look

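The fludarabine effect in MEC1 differed between lines by the interaction test of edgeR in 4793 genes against JVM2 (26.3%) and 5522 against EHEB (30.4%). Line, p53 status and exposure time cannot be told apart. Beside the 26.3% of all genes, the difference against JVM2 passed in 19 of 28 p53 targets and 44 of 46 mitosis genes. It also passed in 32 of 51 interferon-stimulated genes, 26 of 39 sterol and fatty acid genes and 23 of 40 ATF4 genes. Among p53 targets it was −1.73 for BBC3, −1.75 for MDM2, −3.10 for TP53I3 and 1.21 for ZMAT3 (log2, MEC1 minus JVM2). Against EHEB, beside 30.4% of all genes, the difference passed in 21 of 28 p53 targets and 23 of 46 mitosis genes. It also passed in 37 of 51 interferon-stimulated genes, 20 of 39 sterol and fatty acid genes and 33 of 40 ATF4 genes. There it was −2.65 for BBC3, −2.19 for GDF15, 1.20 for PHLDA3, −2.43 for TP53I3 and 1.16 for ZMAT3 (log2, MEC1 minus EHEB). GDF15 and PHLDA3 were at very low levels in MEC1. Neither passed the test of a difference against JVM2 (edgeR adjusted p = 0.96 and 0.219).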

How the results depend on the processing

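The number of genes called was 7694 of 17516 tested as reported. With the same genes tested it was 8165 with library size scaling, 8070 with DESeq2, 7782 with limma-voom and 7723 with TMM on protein-coding genes. Other settings changed the number tested: 6001 of 10970 were called at a mean CPM of at least 5, and 7142 of 27024 without a filter. It was 7547 of 15824 in the 6 libraries alone and 7636 of 20531 in all 36. Counts divided by 8/3, an alternative chosen after seeing the data, gave 7563 of 15140. Leaving out 1 library gave 6758 to 6982 calls, 3127 to 3379 higher and 3568 to 3631 lower. Library size scaling gave 6052 higher and 2113 lower, and turned the lists with more members lower than higher from 30 to 12 and those with more higher from 13 to 28. It turned the medians of 16 of the 44 lists from below to above 0, mitosis genes among them (0.20), and the direction of CDKN2C (0.012), NFKBIA (0.24), PCNA (0.23), TOP2A (0.21) and UGP2 (0.024), through the shift of 0.25 that this scaling adds. The mitosis median was also above 0 at a mean CPM of at least 5 (0.052), where fewer genes were tested. Of the named genes that were called, 49 lost the call in at least 1 of 15 alternatives. No paired analysis was made because the sources used here do not state whether DMSO and fludarabine libraries were paired. With 3 libraries a group, small changes and genes of a few counts are the limit.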

Other observations

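Other gene classes, picked after their values were seen, are given beside the shares over all genes tested, 22.7% lower and 21.2% higher. Of 74 small nuclear RNA genes 20 were lower and 3 higher (27% and 4.05%). Of 293 ribosomal protein pseudogenes 105 were lower and 9 higher (35.8% and 3.07%; median log2 fold change −0.44), and these share sequence with their parent genes. Mitochondrial ribosomal protein genes, which build the ribosome of that organelle, were lower in 26 of 92 (28.3%) and higher in 5 (5.43%), with a median of −0.13 that was 0.11 under library size scaling.

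Of 1237 long noncoding genes 285 were higher (23%, near the share over all genes) and 74 lower (5.98%), and of 484 zinc finger genes of the ZNF family 118 were higher (24.4%, also near it) and 53 lower (11%). Of 21 mitochondrial transfer RNA genes 12 were higher (57.1%) and none lower. Semaphorins and plexins, guidance ligands and their receptors, gave 10 of 23 higher (43.5%) and 1 lower, and tubulin genes 6 of 22 higher (27.3%) and 1 lower.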
